A study of Mus musculus with 6 samples.

Results

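The lipopolysaccharide co-receptor gene Cd14, the Toll-like receptor genes Tlr2, Tlr3 and Tlr4, the adaptor gene Myd88, the NF-κB subunit genes Nfkb1, Nfkb2 and Rela, and the NF-κB inhibitor genes Nfkbia and Tnfaip3 were followed in mouse mesangial cells. They are 10 of the 19730 rows of the expression table, chosen by gene symbol, and each symbol had 1 row. RNA was sequenced from primary mesangial cells, the contractile cells that hold the capillary loops of the kidney glomerulus together. In the TGF-β1 group (n = 3), cells received transforming growth factor beta 1, a cytokine known for its role in fibrosis, at 10 ng/ml for 72 h. The other group (n = 3) is labelled Control, and no vehicle is named. Both groups were grown in high glucose (25.5 mM) and 20% foetal bovine serum and used between passages 3 and 6. No genotype, strain or animal age is given, and the labels do not say whether the libraries came from separate cultures or animals, so p-values measure the spread between these samples, which may be technical.

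Toll-like receptors (TLRs) recognise molecules of microbes and of damaged tissue. CD14, a protein held on the cell surface by a lipid anchor, hands bacterial lipopolysaccharide to the complex of TLR4 and MD-2, and most TLRs pass the signal through the adaptor MyD88 and the IRAK kinases to the IκB kinase. That kinase removes the inhibitor IκBα, so that NF-κB dimers enter the nucleus and switch on genes of inflammation, among them those for IκBα and for the enzyme A20, which end the response. Mesangial cells respond to such signals in glomerular inflammation.

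Values are FPKM, fragments scaled to the length of the transcript and to the mapped fragments of the library, which allow levels of different genes to be set side by side. The depth recovered from the steps between low FPKM values was about 10.1 to 11.1 M (mega) fragments per library. Pearson's r of log2(FPKM + 1) across tested rows lay between 0.876 and 0.940 for libraries of 1 group and between 0.818 and 0.853 for libraries of different groups, a description of the libraries, since genes are not replicates. The replicate 2 libraries of both groups shared deviations from their group means (r = 0.232 across rows, against 0.117 or less for every other pair of a Control and a TGF-β1 library), so for the genes and lists described, the calls lost without them are given below. As a check of the labels, the known TGF-β1 response genes Smad7 and Skil, which encode feedback inhibitors of the pathway, rose from 11.9 ± 1.84 to 39.3 ± 2.25 FPKM (here and below, ± is the SD over n = 3 libraries) and from 2.42 ± 0.226 to 18.2 ± 1.17 FPKM.

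The cell type label was set against marker genes. Of 13 mesangial and pericyte markers listed, 12 were in the table. Pdgfrb, the PDGF receptor of mesangial cells, was at 37.5 FPKM in Control and 29.2 with TGF-β1, and Acta2, Tagln, Vim and Fn1, which fibroblasts and smooth muscle also express, were at 386 FPKM or more in both groups. Itga8, Des, Thy1, Pdgfra and Rgs5, which also mark mesangial cells or pericytes, were at group means of at most 0.271 FPKM. Of the same list, Gata3 was at 1.76 FPKM in Control and 1.03 with TGF-β1, and Cspg4 at 0.0735 and 1.21 FPKM. Of 12 macrophage and leukocyte markers in the table, Ptprc and Laptm5 had a listed value of 0 in all Control libraries, and Lyz2 reached at most 0.0811 FPKM in any library. The highest macrophage marker in Control was Csf1r, at 6.27 FPKM in Control and 0.411 with TGF-β1 (its row overlaps Hmgxb3), followed by Fcer1g at 2.87 and 3.01 FPKM and Cd68 at 2.79 and 2.22 FPKM. The summed FPKM of the 12 markers ranged from 8.90 to 14.6 over the Control libraries and from 4.04 to 8.90 over the treated libraries. Endothelial markers (7 in the table) were below 1 FPKM, whereas podocyte and tubular markers were present. The summed FPKM of 6 podocyte markers ranged from 32.3 to 38.0 in Control and from 14.1 to 14.9 in the treated libraries. All 4 that were tested fell (3 without both replicate 2 libraries, Wt1 being lost), the highest being Cdkn1c at 13.0 and 1.33 FPKM, with Synpo, Podxl and Wt1, while the defining gene Nphs1 was at group means of at most 0.222 FPKM. The sum of 7 tubular markers ranged from 11.6 to 15.0 in Control and from 3.02 to 3.71 in the treated libraries, and most of the Control sum was Aqp1 (10.4 and 0.169 FPKM). Lrp2 also went down, from 1.43 to 0.230 FPKM, while Cubn went from 0.636 to 1.28 FPKM and Krt18 from 0.279 to 1.57 FPKM. In bulk RNA, fewer cells of a type and less RNA per cell cannot be told apart, and the part that such cells have in the results below was not tested.

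Of the 10 genes, all 10 passed the filter (mean of at least 1 FPKM over the 6 libraries), and 6 changed at a limma adjusted p under 0.05 over all tested rows. Tlr3 and Tnfaip3 rose, Cd14, Nfkb1, Rela and Nfkbia fell, and Tlr2, Tlr4, Myd88 and Nfkb2 did not pass the test. Over the whole transcriptome, 48.1% of the 11898 tested rows were called, 24.5% higher and 23.6% lower, so a share of 6 in 10 is near that background. The groups did not overlap for 8 of the 10 genes, against 59.4% of all tested rows. The median log2 change was -0.24 over the 10 genes and -0.02 over all tested rows. Cd14 and Tnfaip3 were the genes that moved by at least 1 on the log2(FPKM + 1) scale. The mean of Tlr3, a low gene, rose 2.0-fold, which this scale understates.

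**Figure D1:**
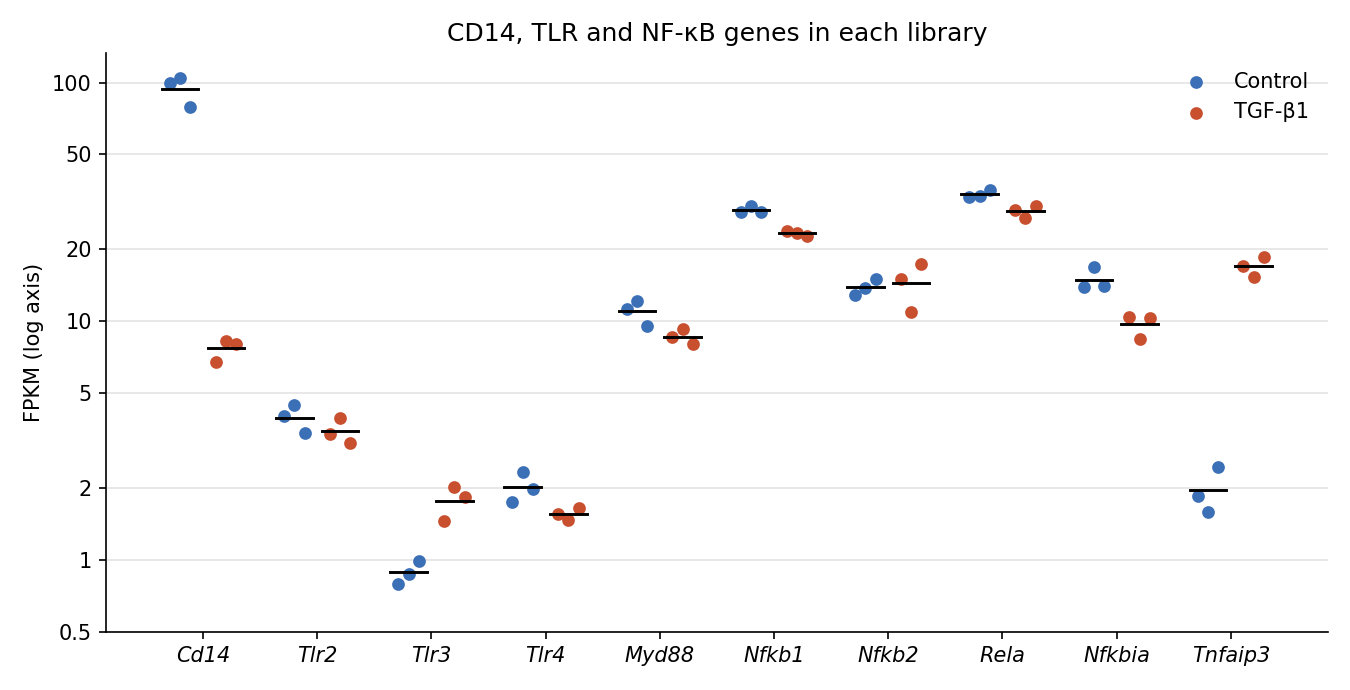
FPKM of the 10 genes in each library on a log axis, with 1 point per library (Control blue, TGF-β1 red, 3 each) and a bar at each group mean. Cd14 falls from between 78.8 and 104 FPKM to between 6.77 and 8.28, and Tnfaip3 rises from between 1.59 and 2.45 to between 15.4 and 18.5, while the points of Tlr2 and Nfkb2 overlap between groups.

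Cd14 encodes the co-receptor itself, and the gene lies on chromosome 18 (mm9, positions 36884728 to 36886390, minus strand, 1 annotated protein-coding transcript). Cd14 was at 99.97, 104 and 78.8 FPKM in Control replicates 1 to 3 and at 6.77, 8.28 and 8.07 FPKM in TGF-β1 replicates 1 to 3. In Control it was the highest of the 10 genes, and no TGF-β1 library came near the lowest Control library. The mean fell from 94.3 ± 13.6 to 7.71 ± 0.819 FPKM (SD, n = 3 each), 12.2-fold lower with TGF-β1. The log2 change was -3.45 (SE 0.134, 95% interval -3.77 to -3.12, limma adjusted p = 1.72e-05). It ranked 83 from the most decreased of all tested rows, and 1.13% of tested rows changed by as much in either direction. The lowest Cd14 value rested on about 102 fragments and the highest on about 1583.

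The receptors that CD14 serves moved far less. Tlr4, the lipopolysaccharide receptor (chromosome 4, mm9, positions 66488618 to 66591318), was at 1.75, 2.35 and 1.99 FPKM in Control and at 1.56, 1.48 and 1.66 FPKM with TGF-β1. The groups did not overlap, yet the change of -0.24 on the log2 scale did not pass the test (95% interval -0.53 to 0.06, limma adjusted p = 0.154). Tlr2, the receptor of bacterial lipoproteins (chromosome 3, positions 83640195 to 83645689), was at 4.02, 4.44 and 3.40 FPKM in Control and at 3.37, 3.93 and 3.09 FPKM with TGF-β1. Its groups overlapped, and the log2 change was -0.15 (95% interval -0.46 to 0.16, limma adjusted p = 0.368). Both intervals leave room for a moderate fall, and both genes rested on few fragments, about 58 to 138 per library.

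Within each library, the ratio of Cd14 to Tlr4 was 57.3, 44.4 and 39.5 in Control. With TGF-β1 it was 4.35, 5.61 and 4.87. The ratio of Cd14 to Tlr2 was between 23.2 and 24.9 in Control and between 2.01 and 2.62 with TGF-β1. These are ratios of FPKM, given as descriptions with no test.

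Tlr3 encodes the endosomal receptor of double-stranded RNA, which signals through TRIF and not MyD88 (chromosome 8, positions 46481019 to 46495962). It was at 0.797, 0.878 and 0.989 FPKM in Control and at 1.46, 2.02 and 1.85 FPKM with TGF-β1, so every treated library was above every Control library. The means were 0.888 ± 0.0963 and 1.77 ± 0.290 FPKM (SD, n = 3 each), 2.0-fold higher, with a log2 change of 0.55 (SE 0.132, 95% interval 0.23 to 0.87, limma adjusted p = 0.0152). With 0.1 in place of 1 added before the log, the change was 0.92. Tlr3 passed the filter through its TGF-β1 libraries, since the Control mean alone is below 1 FPKM. Its values rested on about 36 to 85 fragments. Without both replicate 2 libraries its change was 0.48 and the call was lost (limma adjusted p = 0.0653).

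Myd88, the shared adaptor (chromosome 9, positions 119245052 to 119250529), was at 11.3, 12.2 and 9.59 FPKM in Control and at 8.60, 9.26 and 8.03 FPKM with TGF-β1. The groups did not overlap, and the log2 change of -0.31 (95% interval -0.58 to -0.05) lay just outside the threshold (limma adjusted p = 0.0546). It overlaps Acaa1a on the opposite strand, and whether reads were assigned by strand is not given in the sources used here.

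Rela and Nfkb1, the subunits p65 and p50 of the classical NF-κB dimer, both fell by a small amount. Nfkb1 (chromosome 3, positions 135247619 to 135354511) was at 28.7, 30.3 and 28.8 FPKM in Control and at 23.8, 23.5 and 22.8 FPKM with TGF-β1. Its 3 treated values lay within 1 FPKM of each other and below all Control values, and the log2 change was -0.31 (SE 0.0677, 95% interval -0.48 to -0.15, limma adjusted p = 0.0103). Without both replicate 2 libraries it was -0.29 and the call was lost (limma adjusted p = 0.0629). Rela (chromosome 19, positions 5637483 to 5648130) was at 33.3, 33.6 and 35.5 FPKM in Control and at 29.2, 27.0 and 30.3 FPKM with TGF-β1. Its log2 change was -0.24 (SE 0.0772, 95% interval -0.42 to -0.05, limma adjusted p = 0.0446), and this call is the least secure of the 6. It was lost in 12 of 18 alternatives, including each of the 6 in which 1 library was left out (limma adjusted p = 0.0654 to 0.109), and the log2 change was -0.05 (limma adjusted p = 0.632) once the trend with GC content and length was removed from each library. Rela has the highest GC content of the 10 genes, 59.4%.

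Nfkb2, which encodes the p100 precursor of the alternative pathway (chromosome 19, positions 46379227 to 46386580), was at 12.8, 13.8 and 15.1 FPKM in Control and at 15.1, 10.9 and 17.3 FPKM with TGF-β1. The treated libraries spread more than the Control libraries and enclosed them, and the log2 change was 0.03 (95% interval -0.38 to 0.44, limma adjusted p = 0.898). Its sign turned when single libraries were left out, and it overlaps Psd on the opposite strand.

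**Figure D2:**
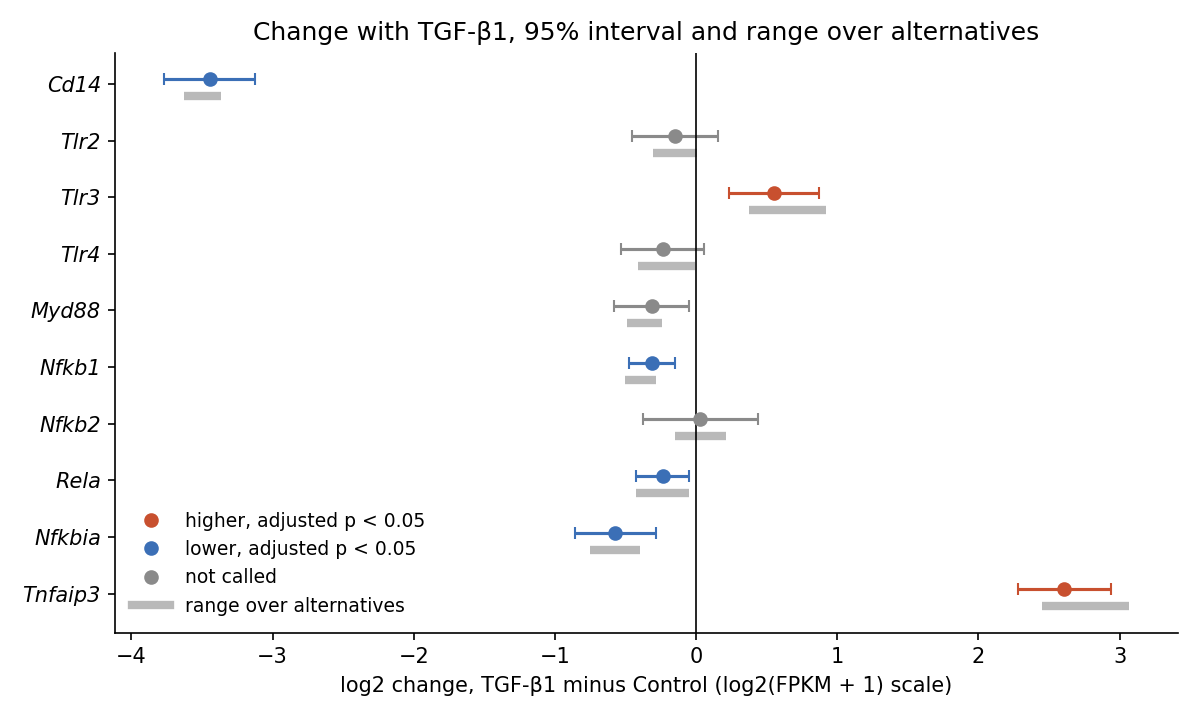
Log2 change of each of the 10 genes (TGF-β1 minus Control, on the log2(FPKM + 1) scale) as a point with its 95% interval, coloured by call, and a grey bar for the range over the alternative analyses. Cd14 at -3.45 and Tnfaip3 at 2.61 stand far from 0, and the other 8 genes lie between -0.57 and 0.55.

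The inhibitors Nfkbia and Tnfaip3 moved in opposite directions. Nfkbia encodes IκBα, the inhibitor that holds NF-κB in the cytoplasm (chromosome 12, mm9, positions 56590398 to 56593634, minus strand). It was at 13.9, 16.9 and 14.0 FPKM in Control and at 10.4, 8.47 and 10.3 FPKM with TGF-β1, with no overlap. The mean fell from 15.0 ± 1.71 to 9.72 ± 1.09 FPKM (SD, n = 3 each), 1.54-fold lower, and the log2 change was -0.57 (SE 0.119, 95% interval -0.86 to -0.29, limma adjusted p = 0.00876). Tnfaip3 encodes A20, a ubiquitin-editing enzyme that shuts off signalling to the IκB kinase (chromosome 10, mm9, positions 18720716 to 18735463, minus strand). It was at 1.85, 1.59 and 2.45 FPKM in Control and at 17.1, 15.4 and 18.5 FPKM with TGF-β1, so the lowest treated library was far above the highest Control library. The mean rose from 1.96 ± 0.440 to 17.0 ± 1.60 FPKM (SD, n = 3 each), 8.66-fold higher, and the log2 change was 2.61 (SE 0.135, 95% interval 2.28 to 2.94, limma adjusted p = 4.37e-05). It ranked 100 from the most increased of all tested rows, and 1.94% of tested rows changed by as much in either direction. Cd14, Nfkbia and Tnfaip3 were called in all 18 alternatives.

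Both genes are textbook NF-κB targets, so their promoters are shown beside that of Tlr3, the other gene that rose. The sequences are the 250 bases before an annotated start, from RefSeq on GRCm38.p6, a later build than the mm9 of the expression table, and all 3 lie on the minus strand. Capitals mark matches to the kB consensus, the 10-base motif that NF-κB binds, searched on both strands.
Tnfaip3 (chr10:19015411-19015660): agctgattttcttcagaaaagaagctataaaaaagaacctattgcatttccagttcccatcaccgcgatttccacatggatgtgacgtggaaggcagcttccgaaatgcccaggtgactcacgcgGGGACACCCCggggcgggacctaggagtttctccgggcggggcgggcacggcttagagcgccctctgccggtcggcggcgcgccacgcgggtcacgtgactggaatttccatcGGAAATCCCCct
Nfkbia (chr12:55492648-55492897): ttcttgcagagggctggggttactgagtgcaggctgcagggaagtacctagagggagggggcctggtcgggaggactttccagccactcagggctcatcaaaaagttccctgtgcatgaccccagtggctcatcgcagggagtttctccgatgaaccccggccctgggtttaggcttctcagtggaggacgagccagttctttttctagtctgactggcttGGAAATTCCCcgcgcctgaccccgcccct
Tlr3 (chr8:45410381-45410630): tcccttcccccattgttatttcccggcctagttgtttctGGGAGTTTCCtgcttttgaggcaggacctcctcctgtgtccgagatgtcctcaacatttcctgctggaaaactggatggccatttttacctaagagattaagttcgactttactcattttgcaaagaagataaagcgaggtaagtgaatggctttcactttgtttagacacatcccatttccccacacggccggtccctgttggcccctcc
The matches begin 125 and 12 bases before the start in Tnfaip3, 29 bases before it in Nfkbia and 211 bases before it in Tlr3. In windows of 300 bases (250 before to 50 after the start), 5 of the 7 genes with an entry held a match, namely Tlr2, Tlr3, Nfkb2, Nfkbia and Tnfaip3, and Myd88 and Rela held none. Tnfaip3 has 2 annotated starts and the window of the other start held none. Counted by window, 7 of the 10 windows of these genes held a match, with some Nfkb2 windows overlapping. Of all 32851 windows in the table, 8.46% held a match. Cd14, Tlr4 and Nfkb1 had no entry. Genes with a match were found among those that rose, those that fell and those that did not pass the test.

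The ratio of Tnfaip3 to Nfkbia within a library was 0.0940 to 0.175 in Control and 1.64 to 1.81 with TGF-β1. Tnfaip3 was thus below Nfkbia in every Control library and above it in every treated library. The ratio of Nfkbia to Rela was 0.395 to 0.504 in Control and 0.314 to 0.355 with TGF-β1, whereas that of Nfkb1 to Rela overlapped between groups (0.812 to 0.901 and 0.753 to 0.870). The ratio of Tlr3 to Tlr4 was 0.374 to 0.496 in Control and 0.935 to 1.37 with TGF-β1.

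**Figure D3:**
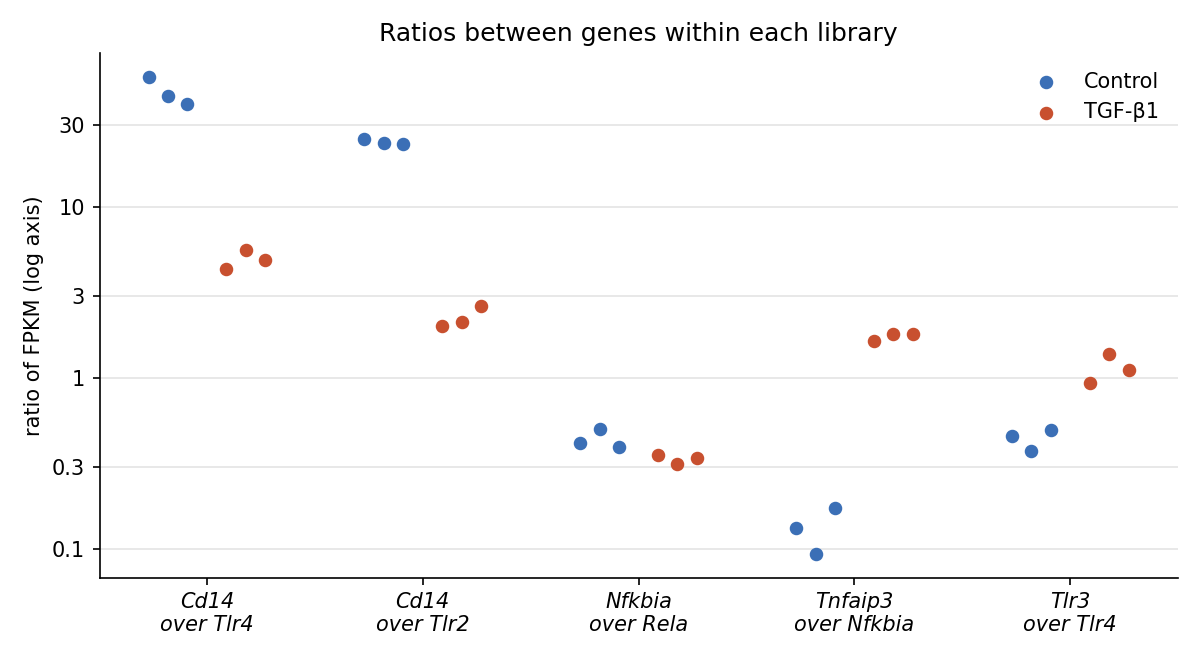
Ratio of FPKM between pairs of the 10 genes within each library, on a log axis, with 1 point per library (Control blue, TGF-β1 red). Cd14 over Tlr4 goes from between 39.5 and 57.3 to between 4.35 and 5.61, and Tnfaip3 over Nfkbia from at most 0.175 to at least 1.64.

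Ordered by FPKM, the Control libraries ran from Cd14 over Rela, Nfkb1, Nfkbia, Nfkb2, Myd88, Tlr2, Tlr4 and Tnfaip3 to Tlr3. The ranges of Nfkbia and Nfkb2 overlapped, as did those of Tlr4 and Tnfaip3, and all other neighbours were apart. With TGF-β1 the order was Rela, Nfkb1, Tnfaip3, Nfkb2, Nfkbia, Myd88, Cd14, Tlr2, Tlr3 and Tlr4. There the ranges overlapped between Tnfaip3 and Nfkb2, between Nfkbia and Myd88, between Myd88 and Cd14, and between Tlr3 and Tlr4. Cd14 thus went from rank 1 to rank 7 and Tnfaip3 from rank 9 to rank 3.

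The other genes of the pathway were read from lists by role that leave out the 10 genes. Of 153 listed genes, 135 were in the table and 98 were tested, of which 31 rose, 25 fell and 42 did not pass the test. This is 57.1% called, near the 48.1% of all tested rows (24.5% higher and 23.6% lower). The counts by role below are to be read beside the same shares. The median log2 change of the 98 genes was 0.03, against -0.02 over all tested rows. With both replicate 2 libraries left out, 23 rose and 19 fell. Scaled to the protein-coding sum, 24 rose and 33 fell, so which direction holds more genes depends on the scaling.

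**Figure D4:**
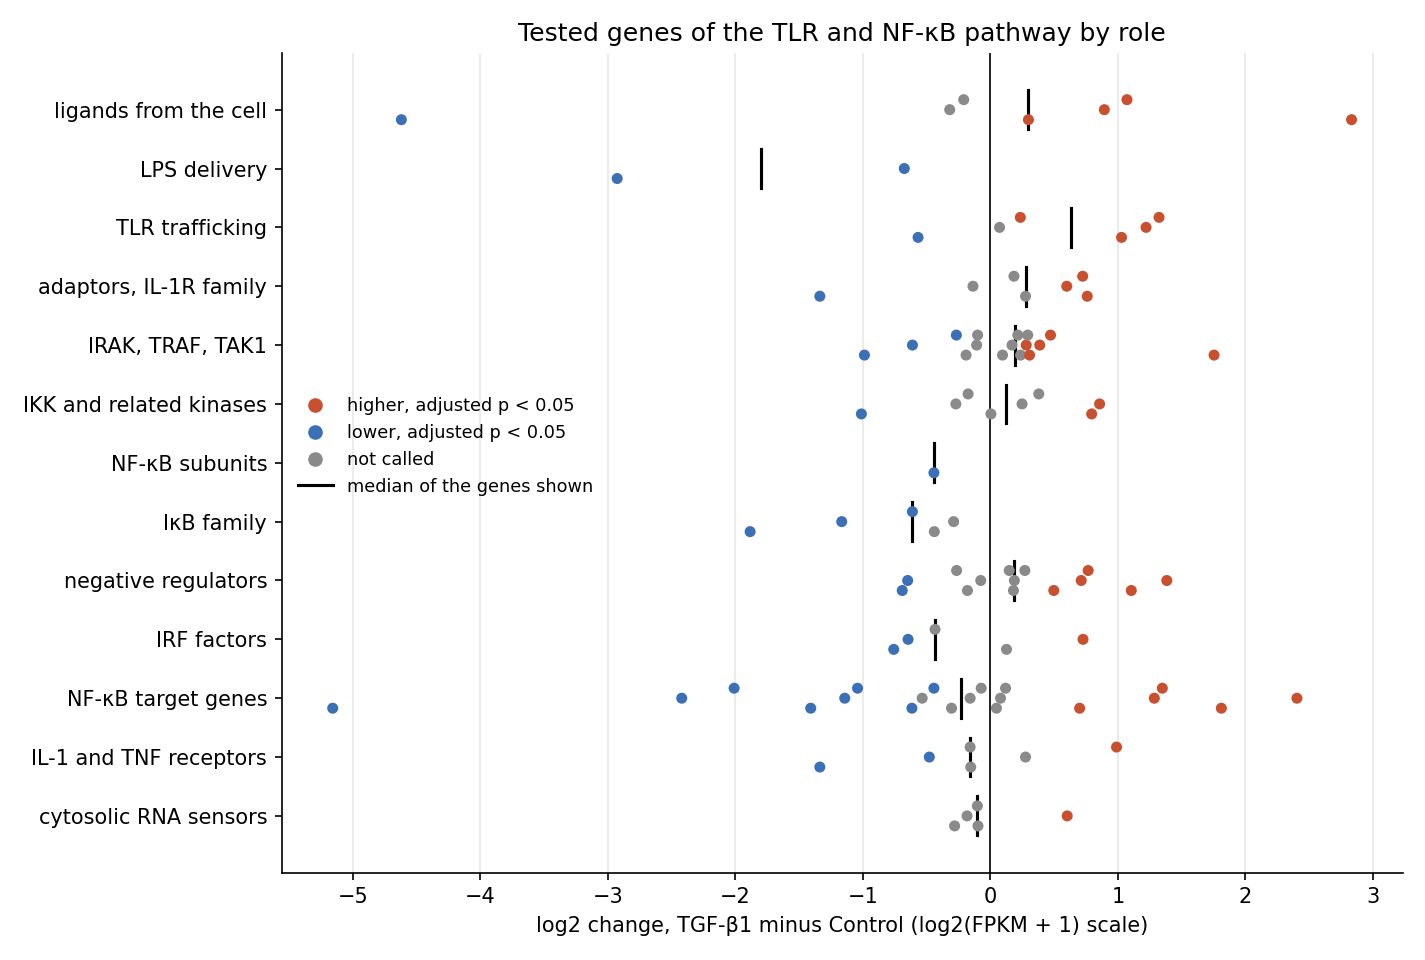
Log2 change (TGF-β1 minus Control, on the log2(FPKM + 1) scale) of the tested pathway genes other than the 10, with 1 point per gene by role, coloured by call, and a black bar at the median of each role; a gene on several lists appears in each. The genes of lipopolysaccharide delivery and the IκB family hold no increase, whereas the target genes run from -5.16 (C3) to 2.40 (Ptgs2).

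The partners of CD14 fell with it. Ly96, the gene of MD-2, was at 43.8, 42.7 and 57.2 FPKM in Control and at 28.2, 32.8 and 27.3 FPKM with TGF-β1, a fall with no overlap (-0.68 on the log2 scale, SE 0.138, limma adjusted p = 0.00824). Lbp, whose protein carries lipopolysaccharide to CD14, was at 6.14, 12.1 and 8.95 FPKM in Control and at 0.465, 0.0444 and 0.387 FPKM with TGF-β1 (log2 change -2.93, SE 0.253, limma adjusted p = 2.65e-04). These are both tested genes of the delivery list, and Cd36 and Cd180 were near 0. Of the other TLR genes, 6 were in the table and none passed the filter. Tlr6, the partner of TLR2, was between 0.451 and 0.733 FPKM in Control and between 0.50 and 0.986 FPKM in the treated libraries, and Tlr1, Tlr5, Tlr7, Tlr12 and Tlr13 were at 0.0721 FPKM or less in every library.

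Of 7 tested genes for ligands that cells themselves release, 4 rose, 1 fell and 2 did not pass the test. The largest increase was that of Bgn, the gene of the small proteoglycan biglycan, a ligand of TLR2 and TLR4, from 7.53 ± 0.306 to 59.8 ± 4.76 FPKM (2.83 on the log2 scale, limma adjusted p = 7.84e-06). The related proteoglycan gene Dcn, for decorin, fell from 104 ± 1.92 to 3.30 ± 0.472 FPKM (-4.62, limma adjusted p = 2.69e-06). The matrix gene Tnc rose by 1.07 and the chaperone gene Hspd1 by 0.89 on the log2 scale. Of 6 tested genes for TLR folding and transport, 4 rose and 1 fell, with Lrrc32 (1.32), Rab10 (1.22) and the TLR chaperone gene Hsp90b1 (1.03) rising and the co-chaperone gene Cnpy3 falling (-0.57). Both without the replicate 2 libraries and under protein-coding sum scaling, 3 ligand genes and 3 transport genes rose (Vcan and Rab7 were lost). Lrrc32 encodes GARP, which is known for tethering latent TGF-β, and its count under TLR transport rests on the list alone.

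Below the receptors the changes went both ways. Of 7 tested adaptors and interleukin-1 receptor family genes, 3 rose and 1 fell, and the receptor genes Il18r1 and Sigirr were near 0. Il1rl1, the interleukin-33 receptor, rose by 0.76, Ticam2, the TRAM adaptor, by 0.72 and Tollip, which dampens IRAK signalling, by 0.60, whereas Il1r1, the interleukin-1 receptor, fell from 1.95 to 0.164 FPKM (-1.34). The adaptors Ticam1 (-0.14) and Tirap (0.18) did not pass the test. Of 16 tested IRAK, TRAF and TAK1 genes, 5 rose, 3 fell and 8 did not pass the test. Irak2 rose from 10.2 ± 3.08 to 35.7 ± 2.59 FPKM (1.75, limma adjusted p = 8.69e-04), and Irak3, the gene of the inhibitory IRAK-M, fell from 1.77 ± 0.259 to 0.394 ± 0.112 FPKM (-0.99, limma adjusted p = 0.00192). Traf3 (0.47) and Ube2n (0.39) rose, while Tab1 (-0.61) and Irak1 (-0.27) fell. Of these 16 genes, 1 rose (Irak2) and 1 fell (Irak3) without both replicate 2 libraries, and 1 rose and 3 fell under protein-coding sum scaling. The next list held 8 tested genes of the IκB kinase, related kinases and proteins that bind them. The binding partners Ikbip (0.86) and Tank (0.79) rose, and the kinase gene Ikbke, the interferon-linked IKKε, fell (-1.01). Ikbkb (-0.27), Chuk (0.38) and Ikbkg (0.25), the core of the IκB kinase, did not pass the test.

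Of 5 tested IκB family genes other than Nfkbia, 3 were lower and none higher, with a median of -0.61, where 23.6% of all tested rows were lower. Bcl3, a nuclear IκB protein that binds p50 and p52, fell from 13.0 ± 1.34 to 2.86 ± 1.03 FPKM (-1.88, limma adjusted p = 5.56e-04). Nfkbiz, the gene of IκBζ, fell from 27.6 ± 0.778 to 11.7 ± 0.779 FPKM (-1.17, limma adjusted p = 1.13e-04), and Nfkbie fell from 5.21 to 3.10 FPKM (-0.61). Nfkbib (-0.29) and Nfkbil1 (-0.44) did not pass the test, and Nfkbid was under the filter. Without both replicate 2 libraries, 2 of the 5 were lower (Bcl3 and Nfkbiz). Among the remaining NF-κB subunits, Relb fell from 7.86 to 5.50 FPKM (-0.44, limma adjusted p = 0.038), a call that was lost without both replicate 2 libraries, and Rel was under the filter at means of 0.187 and 0.456 FPKM.

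Among 14 tested negative regulators besides A20, 5 rose, 2 fell and 7 did not pass the test. Rnf11, a partner of A20, rose by 1.38, the phosphatase gene Dusp1 by 1.10, Nkrf by 0.77, Atf3 by 0.71 and Usp25 by 0.50 on the log2 scale. Tnip2, which binds A20, fell by 0.69 and Trib1 by 0.65. Tnip1 (-0.27), Cyld (0.15), Otud7b (0.27), Zc3h12a (0.19), Nlrx1 (-0.18), Itch (-0.08) and Tax1bp1 (0.18) did not pass the test, and Tnip3 and Nlrc5 were under the filter. The calls of Atf3 and Usp25 were lost without both replicate 2 libraries, which left 3 higher and 2 lower. Under protein-coding sum scaling 4 were higher and 4 lower, with Tnip1 and Itch among the lower. Of 5 tested interferon regulatory factors, Irf1 rose by 0.73, and Irf3 and Irf2 fell by 0.76 and 0.65.

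Known NF-κB target genes moved in both directions, with 5 of 20 tested genes higher, 8 lower (Relb counted here too) and 7 not past the test. Ptgs2, the gene of cyclooxygenase 2, rose from 8.58 ± 1.36 to 49.4 ± 1.66 FPKM (2.40, limma adjusted p = 3.61e-05), Gadd45b rose by 1.81 and Ier3 by 1.35. C3, the central complement component, fell from 37.7 ± 5.62 to 0.0761 ± 0.0491 FPKM (-5.16, limma adjusted p = 4.41e-06). The chemokine genes Cxcl1 and Ccl2 fell by 2.42 and 2.01 on the log2 scale, Ccl2 from 20.8 to 4.47 FPKM, and Ccl7 fell by 1.14. The chemokine gene Ccl5 went the other way, from 1.99 to 6.30 FPKM (1.285, limma adjusted p = 3.16e-04). Cxcl10 (0.12) and Cxcl16 (0.08), whose rows overlap another annotated gene, did not pass the test. Il6 was under the filter and listed at 0 in all Control libraries, with a mean of 1.69 FPKM with TGF-β1. Without both replicate 2 libraries 5 target genes were higher and 6 lower (Relb and Tnfaip2 were lost), and under protein-coding sum scaling 5 were higher and 10 lower. Lbp, Il1r1, Irak3, Cxcl1 and C3 passed the filter through their Control libraries, since their treated means alone are below 1 FPKM. Of the genes named here from the lists, Hspd1, Tnc, Hsp90b1, Rab10, Cnpy3, Ticam2, Irak1, Irak3, Traf3, Ikbkb, Ikbkg, Bcl3, Nfkbib, Nfkbil1, Irf1, Irf3, Tnip1, Itch, Ccl2, Vcan, Rab7 and Cd180 overlap another annotated gene, as do the markers Tagln, Fn1, Des, Itga8, Gata3, Nphs1 and Cubn, and their values are uncertain to that extent.

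On the log2(FPKM + 1) scale, the protein-coding genes whose profile over the 6 libraries was nearest to that of Cd14 were Aqp1 (root mean square distance of centred values 0.153), Enpep (0.162), Gc (0.190), Gstm1 (0.190) and C4bp (0.194). Aqp1 encodes a water channel, Enpep aminopeptidase A, Gc the vitamin D-binding protein, Gstm1 a glutathione S-transferase and C4bp a complement regulator. Their mean FPKM went from 10.4 to 0.169, from 60.6 to 5.49, from 11.8 to 0.498, from 222 to 15.9 and from 10.4 to 0.249. They were chosen for this likeness, so these values are a description. Aqp1, Gc and C4bp passed the filter through Control, and their treated means lay below 1 FPKM, where the log2(FPKM + 1) scale understates changes. Their means fell 61.41-fold, 23.78-fold and 41.88-fold, against 12.24-fold for Cd14. Enpep (11.03-fold) and Gstm1 (13.97-fold) were nearer to Cd14. The likeness of Aqp1, Gc and C4bp thus holds on the log2(FPKM + 1) scale and not in fold change.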

How the data were processed

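RNA-Seq was performed on 3 Control and 3 TGF-β1 libraries. Per the study's methods, the authors filtered out reads of low quality, aligned the others to mm9 by TopHat (TopHat2 2.0.11 in the submitters' processing notes) and estimated FPKM with Cufflinks. The deposited values are FPKM, 1 column per library and no column left unmatched, and no scaling between libraries is given. The authors tested counts with DESeq. Counts were not used here, so FPKM was tested on a log scale. Groups came from the sample labels.

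The test was limma 3.58.1 (R 4.3.3, lmFit and eBayes with a trend). It took the 11898 of 19730 rows whose FPKM averaged at least 1 over the libraries, as log2(FPKM + 1). P-values are two-sided and Benjamini-Hochberg adjusted over all of these rows. This scale understates the change of low genes. An adjusted p under 0.05 was called changed. In simulated data of 11898 rows with 200 changed, 71% of changes of 1 and 91% of changes of 2 on the log2 scale were recovered, and 4.71% of calls were false. In the data a far larger share of rows, 48.1%, was called. The simulated noise was also independent between libraries, so these rates may not hold for the data. Depth was estimated from FPKM steps with an assumed fragment length of 200 nt (low values within 0.1 of a whole fragment), so fragment numbers are approximate. No count model was run. Positions are 1-based from GENCODE M1 (mm9), and whether a row holds a gene or a single transcript is not given in the sources used here. Some rows match short transcripts, namely Tlr13 (119 nt), Tnfrsf1a (250 nt), Cd40 (348 nt), Ddx58 (386 nt) and Vim (479 nt). If such a row holds that transcript alone, its FPKM is uncertain and hard to set beside that of longer genes.

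The 10 genes and the lists were chosen with earlier results of these data known. Named from each list were up to 3 largest increases and decreases among called genes and every receptor, subunit and inhibitor, and for likeness the 5 genes nearest to Cd14. Further called genes (Atf3, Usp25) are inhibitors under that rule. Ticam1, Tirap, Chuk, Ikbkb, Ikbkg, Il6, Ccl5, Ccl7, Cxcl10 and Cxcl16 were added after their values were seen. Alternatives covered the pseudocount, the filter, scaling, the eBayes settings, a replicate block and left-out libraries. A correction of each library for GC content and length was added after seeing the data. Python 3.11.15, pandas 2.3.3 and numpy 2.4.6 were used.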

Additional observations from a re-analysis of the deposited data

How the results depend on the processing

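Over 18 alternatives, the log2 change was -3.63 to -3.37 for Cd14, 2.45 to 3.07 for Tnfaip3 and -0.75 to -0.40 for Nfkbia, each called in all 18. The number of the 10 genes called was 3 at an adjusted p under 0.01 and 3 with replicates 1 and 3 alone, where Cd14, Nfkbia and Tnfaip3 were the genes called, and 5 to 6 when 1 library was left out. The number of other pathway genes called (56) was 42 to 61 over all alternatives and 47 to 54 when 1 library was left out. The change of Tlr2 turned to 0.0084 under quantile normalization. That of Nfkb2 turned to -0.15 under scaling to the protein-coding sum, to -0.02 without Control replicate 1, to -0.01 without TGF-β1 replicate 1 and to -0.10 without TGF-β1 replicate 3, while it was 0.21 without TGF-β1 replicate 2. Myd88 was called under the protein-coding sum (-0.49, limma adjusted p = 0.0108) and without Control replicate 3 (-0.40, 0.0252), and Tlr4 with the GC and length trend removed (-0.42, limma adjusted p = 0.0265). Scaling to the protein-coding sum moved the median of all tested rows to -0.19 and the calls to 2015 higher and 3927 lower, against 2911 and 2810. Relative to that median, Cd14 was at -3.44, Nfkbia at -0.57 and Tnfaip3 at 2.64. The causes were not tested. A filter at a mean of 3 FPKM leaves out Tlr3 and Tlr4.

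Whether the replicate numbers pair the libraries was not settled by their deviations. Deviations of same-numbered libraries correlated at 0.0921, 0.232 and 0.0853, and those of differently numbered libraries at -0.194 to 0.117. Control replicates 2 and 3 correlated best with the TGF-β1 library of their own number, but Control replicate 1 correlated best with TGF-β1 replicate 3. With the replicate number as a block, 6 of the 10 genes, 50 of the other pathway genes and 5391 rows were called. Under the block Myd88 was called (limma adjusted p = 0.0436) and Rela was not (0.0725).

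Depth limits Tlr2, Tlr3 and Tlr4, which rested on about 36 to 138 fragments per library.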

Other observations

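Receptors of the cytokines that share the NF-κB pathway moved in both directions. Tnfrsf1a, the gene of TNF receptor 1, fell from 82.6 to 58.9 FPKM (-0.48 on the log2 scale, limma adjusted p = 0.00629), and Tnfrsf1b, the gene of TNF receptor 2, rose from 3.66 to 8.17 FPKM (0.99, limma adjusted p = 0.00159). Without both replicate 2 libraries the call of Tnfrsf1a was lost (-0.45, limma adjusted p = 0.0535). The row of Tnfrsf1a matches a transcript of only 250 nt, so its FPKM level is uncertain. Ltbr (-0.15), Cd40 (-0.16) and Il1rap (0.28, its row overlaps another annotated gene) did not pass the test, and Tnfrsf11a was near 0. Among 5 tested genes of cytosolic nucleic acid and peptidoglycan sensing, Ripk2, the kinase below NOD receptors, rose by 0.60 on the log2 scale (limma adjusted p = 0.00686, its row overlaps another annotated gene). Ddx58, Mavs, Tmem173 and Nod1 lay between -0.28 and -0.10 and did not pass the test. Under protein-coding sum scaling Ltbr, Ddx58 and Tmem173 were lower (limma adjusted p = 0.0314, 0.0458 and 0.0327). Ifih1, Dhx58 (which overlaps another annotated gene) and Nod2 were under the filter.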
